A study of Mus musculus with 24 samples.

Results

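The ubiquitin ligases of muscle atrophy and the ligase Wwp1 were followed in the M. gastrocnemius, a calf muscle, of obese mice that breathed reduced oxygen. The set held 10 genes, Fbxo32, Trim63, Trim54, Trim55, Fbxo30, Cblb, Nedd4, Wwp1, Traf6 and Stub1, of 34797 gene names on the array. They were chosen by gene name, with the Hypox and Norm values of these arrays already known, so the differences of the members between the groups are given as a description, with no P-value for a member. The 10 genes had 16 probes in 25 spots, and 11 probes of 9 genes passed the filter on dim signals, a mean Cy5 signal over 2 times the local background.

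The study compared 12 Hypox mice, kept for 6 h in air with 12% O2, with 12 Norm mice, kept for 6 h in air with 20.9% O2. All 24 were male C57BL/6JOlaHsd mice that arrived at 10 weeks of age, ate a low-fat diet (10% of energy from fat) for 3 weeks and then a diet with 40% of energy from fat for 6 weeks, and were in a fasted state for the exposure. Each mouse was hybridised to 1 array in Cy5 against a Cy3 pool of the RNA of all samples, so a value of 0 on the log2 ratio scale means the level of that pool. No genotype or transgene differed between the groups, and each group therefore stands for 1 oxygen level at 1 time in fasted, obese males.

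A ubiquitin ligase (E3) picks a protein and helps to pass ubiquitin to it from a conjugating enzyme (E2), which had received it from an activating enzyme (E1). A chain of ubiquitin marks the protein for the proteasome. In skeletal muscle, Fbxo32 (also called MAFbx) and Trim63 (also called MuRF1) are the ligases best known for their induction in fasting, disuse and glucocorticoid excess, and FOXO transcription factors are known activators of both genes. Wwp1 and Nedd4 belong to another family, the HECT ligases, which carry ubiquitin on the enzyme itself before it reaches the substrate.

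The arrays differed in brightness. Norm arrays had a mean Cy5 signal of 58.3 to 933 and Hypox arrays of 63.5 to 1014, and the Cy5 signal was well above background on 9.42 to 37.8% of the spots. Every slide held 2 Norm and 2 Hypox arrays. Slide 1 was the dimmest, with means of 58.3 to 102. Hypox replicate 2 had the lowest array weight in limma (0.197, against at most 2.22) and the widest deviations from its group over all probes (SD 0.51, median of the arrays 0.27). Next came Hypox replicate 12 by weight (0.363) and Norm replicate 4 by deviations (SD 0.48). Where Hypox replicate 2 or an array of slide 1 moved the difference of a member probe most, that difference is given with and without it. All 10 skeletal muscle markers passed the filter, Acta1, Ckm and Myh4 among them. Over all 14421 probes tested, 13.8% reached an unadjusted P-value under 0.05 in limma, 7.4% higher and 6.44% lower in Hypox, and 0.943% passed an adjusted 0.05 (Benjamini-Hochberg).

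Of the 11 member probes past the filter, 9 had a higher mean in Hypox and 2 a lower one, with a median difference of 0.10 on the log2 scale. Of all 14421 probes tested, 8130 had a higher mean in Hypox and 6291 a lower one, with a median difference of 0.02. Wwp1 probe 1 was the single member probe that the fit over all probes put past an unadjusted 0.05. Nothing is read from these counts, and they are no test of the members, since the contrast was known when the members were chosen. In RNA from whole muscle, fewer cells of a type and less RNA per cell cannot be told apart.

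**Figure D1:**
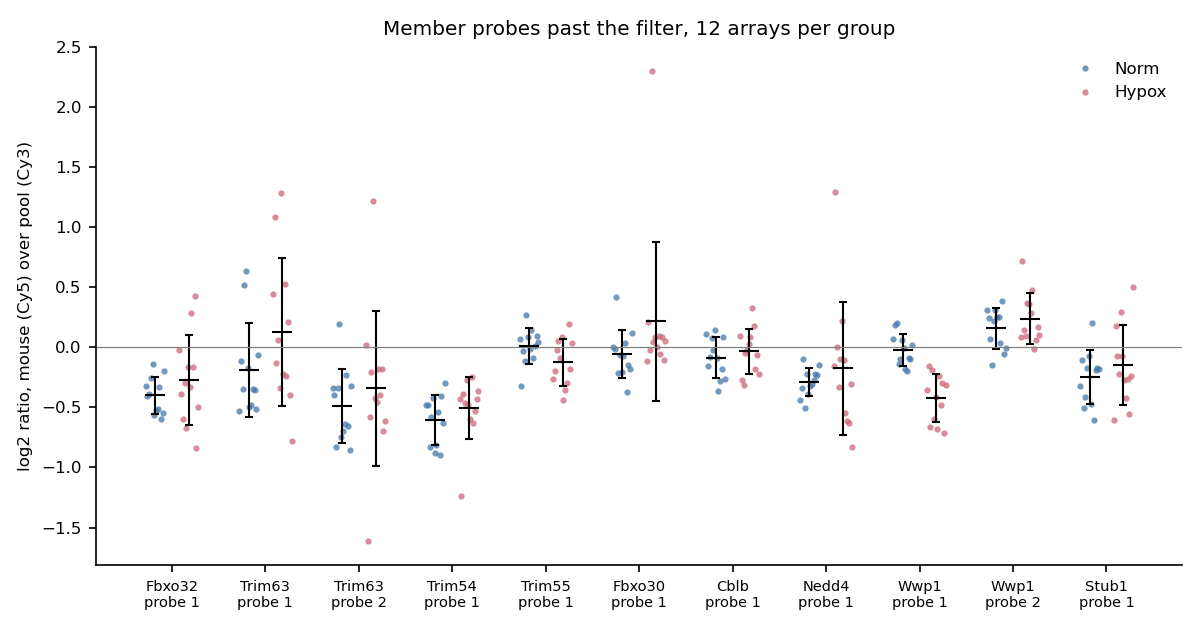
Log2 ratio of each mouse (Cy5) over the reference pool (Cy3) for the 11 member probes past the filter; points are the 12 arrays of each group, black bars the mean and SD. Hypox and Norm overlap at every probe, and at Wwp1 probe 1 all 12 Hypox points lie under the Norm median.

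Wwp1, a HECT ligase of the same family as Nedd4, was measured by a pair of probes that disagreed. Probe 1 lies on chr4:19536837-19536896 (mm9, minus strand) and starts at base 4993 of the transcript, near its 3′ end. It read 5.27 times the background on average. In Norm the log2 ratio of probe 1 had its lowest value at -0.20, its median at -0.05 and its highest at 0.20. In Hypox the lowest was -0.71, the median -0.38 and the highest -0.15. All 12 Hypox arrays lay below the Norm median, and 10 of them lay below every Norm array; the others were replicates 2 and 4.

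Norm had a mean of -0.02 ± 0.13 (SD, n = 12) at Wwp1 probe 1 and Hypox one of -0.42 ± 0.20 (SD, n = 12), a difference of -0.40 (SE 0.07). It was the 375th lowest difference of the 14421 probes. On each of the 6 slides the Hypox mean was the lower one, by -0.13 on slide 1 to -0.62 on slide 6. With any 1 array left out the difference lay between -0.43 and -0.37, and it was -0.49 (SE 0.08) over the 19 arrays left after slide 1 and Hypox replicate 2 were removed. The size depended on the signals and the normalization, at -0.62 (SE 0.15) with the scanner's processed signals and -0.15 (SE 0.26) with each array centred on its median in place of loess, where the median of all probes stood at 0.24. In each group, the scanner software called it well above background on 10 of the 12 arrays.

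Wwp1 probe 2 starts at base 2499 of the transcript, upstream of probe 1. Its genomic match spans chr4:19550344-19554813 on the minus strand (mm9), far longer than the probe, so it crosses a junction of exons. Its sequence is shown because it is the part of Wwp1 in which the lower Hypox level was not seen.
Wwp1 probe 2: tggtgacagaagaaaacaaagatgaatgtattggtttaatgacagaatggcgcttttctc
In Norm the log2 ratio of probe 2 lay between -0.14 and 0.38, with a median of 0.23, and in Hypox between -0.02 and 0.72, with a median of 0.16. The groups overlapped, with 5 Hypox arrays above and 7 below the Norm median. Norm averaged 0.16 ± 0.17 (SD, n = 12) and Hypox 0.24 ± 0.21 (SD, n = 12), a difference of 0.08 (SE 0.08). It was the dimmer probe, at 2.29 times the background and well above it on 7 Norm and 8 Hypox arrays.

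Neither the direction nor the size was shared by both Wwp1 probes. The slide means of probe 2 were higher in Hypox on 3 slides and lower on 3. Without Hypox replicate 2, which held the highest value of probe 2, the difference was 0.04 (SE 0.07). With the group means removed, the probes correlated over the 24 arrays at r = 0.24 (rho = 0.16), a description of how far they followed each other from mouse to mouse. In the deposited values, in which the authors kept spots 1 by 1, the differences were -0.42 (SE 0.09) for probe 1 and -0.03 (SE 0.14) for probe 2. Which transcripts the probes measure was not tested.

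**Figure D2:**
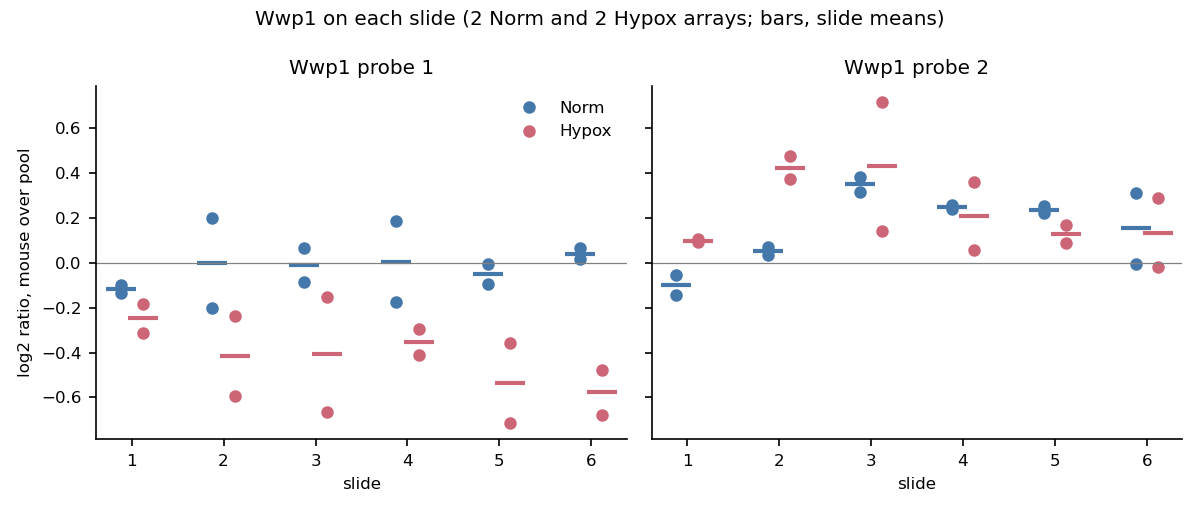
Log2 ratio of both Wwp1 probes on each of the 6 slides, with 2 Norm and 2 Hypox arrays a slide; bars are the slide means. The Hypox mean of probe 1 lies under the Norm mean on all 6 slides, that of probe 2 on 3.

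Trim63, a RING ligase that binds titin and tags proteins of the thick filament, also had a pair of probes. Probe 1 (chr4:133885025-133885084, mm9, plus strand, base 1366) was the brightest member probe relative to its background, at 75.0 times. In Norm its log2 ratio ran from -0.53 over a median of -0.35 to 0.64, and in Hypox from -0.78 over a median of -0.03 to 1.29. Of the Hypox values, 10 of 12 lay above the Norm median, the highest being those of replicates 6 (1.29) and 2 (1.08). The means were -0.19 ± 0.39 (SD, n = 12) and 0.13 ± 0.62 (SD, n = 12), a difference of 0.31 (SE 0.20). It was the 369th highest difference of all probes.

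The difference of Trim63 probe 1 was carried by part of the slides. It was 1.04 on slide 4, 0.92 on slide 3 and 0.44 on slide 2, but -0.05 on slide 5, -0.12 on slide 6 and -0.36 on slide 1. Without Hypox replicate 6 it was 0.21 (SE 0.18), without slide 1 it was 0.45, and over the 19 arrays 0.35 (SE 0.19). The spread between mice of 1 group was wide, with a within-group SD of 0.52 that exceeded that of 95.3% of all probes.

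Trim63 probe 2 starts at base 1016 of the transcript, on chr4:133881557-133881616 (mm9, plus strand). It is printed because its r with probe 1 over the 24 arrays was -0.07.
Trim63 probe 2: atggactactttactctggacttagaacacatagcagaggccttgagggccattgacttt
Its log2 ratio ran from -0.85 over a median of -0.52 to 0.20 in Norm and from -1.62 over a median of -0.41 to 1.22 in Hypox. The difference was 0.15 (SE 0.19), and without Hypox replicate 5, the highest, it was 0.003 (SE 0.15). That was the lowest value with 1 array left out, and the highest was 0.26. Over the 19 arrays the difference was 0.28 (SE 0.19). Hypox replicate 2 had the lowest value of probe 2 (-1.62) and one of the highest of probe 1 (1.08). Hypox replicate 5 had the highest value of probe 2 (1.22) and read -0.33 at probe 1. With the group means removed, the Trim63 probes correlated at r = -0.07 (rho = 0.28) over the 24 arrays, these 2 included. Their correlation without these 2 arrays was not run. Both probes were well above background on all 24 arrays.

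Upstream of Trim63, the RefSeq promoter table (GRCm38.p6) was searched for the letters TGTTTAC, bound by FOXO factors, on both strands of the 250 bases before the start. The promoter is shown because FOXO factors are described activators of this ligase, with the match in capitals.
Trim63 promoter, chr4:134314870-134315119, plus strand (GRCm38.p6): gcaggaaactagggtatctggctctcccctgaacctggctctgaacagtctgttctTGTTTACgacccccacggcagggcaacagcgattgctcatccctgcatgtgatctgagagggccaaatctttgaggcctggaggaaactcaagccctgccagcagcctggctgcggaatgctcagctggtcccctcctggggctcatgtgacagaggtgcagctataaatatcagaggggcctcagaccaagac
The match begins at position -194 from the start. These letters stand in 3.17% of the 32851 promoters of the same length, and in 1 of the 8 promoters that the table holds for 7 members. It holds none for Fbxo32, Trim55 or Wwp1, so these were not searched. A match of letters is a description of the sequence, not a measured binding site.

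Fbxo32 encodes the F-box subunit that gives an SCF ligase its choice of substrate, MyoD and eIF3f among those described. Its probe on chr15 was printed in 10 spots, so its value is the least affected by the error of a single spot. The SD between its spots within an array had a median of 0.16. In Norm the log2 ratio of Fbxo32 ran from -0.59 over a median of -0.39 to -0.13, and in Hypox from -0.84 over a median of -0.31 to 0.43. The Hypox arrays lay on both sides of the Norm range, with 3 below every Norm array (replicates 11, 5 and 3) and 3 above (replicates 10, 8 and 1).

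Norm averaged -0.40 ± 0.15 (SD, n = 12) for Fbxo32 and Hypox -0.27 ± 0.37 (SD, n = 12), a difference of 0.13 (SE 0.11). Each of the 10 spots gave a higher Hypox mean, from 0.04 to 0.21, though the spots share the same RNA and are not replicates of the condition. The largest slide difference was 0.60, on slide 4. Without Hypox replicate 10 the difference was 0.06 (SE 0.10). The Hypox SD of Fbxo32 was 2.45 times the Norm SD, and 2.77 times over the 19 arrays.

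Larger spread in Hypox was seen at other members. The SD was larger in Hypox than in Norm at 11 of the 11 member probes past the filter, and at 56.3% of all probes tested. Over the 19 arrays it was larger at 9 of 11 member probes and at 34.3% of all probes. The ratio of the SDs was highest for Nedd4, at 4.68 with all arrays and 2.78 with 19. That of Fbxo30 went from 3.30 to 0.39 and that of Trim54 from 1.25 to 0.59. The spread was described and not tested.

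Nedd4, the HECT ligase after which its family is named and known for its role in membrane protein turnover, had 1 probe at 43.6 times the background. Its log2 ratio ran from -0.50 over a median of -0.29 to -0.09 in Norm, and from -0.83 over a median of -0.23 to 1.29 in Hypox. Norm was narrow (SD 0.12), whereas 4 Hypox arrays lay below every Norm array and 3 lay above. The difference was 0.11 (SE 0.15), and without Hypox replicate 2, the highest, it was -0.02 (SE 0.10).

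Trim54 and Trim55 (also called MuRF3 and MuRF2) are relatives of Trim63 that associate with microtubules and the sarcomere. The Trim54 probe ran from -0.89 over -0.56 to -0.29 in Norm and from -1.24 over -0.45 to -0.24 in Hypox (lowest, median and highest log2 ratio). Its difference was 0.10 (SE 0.10), and 0.16 (SE 0.08) without Hypox replicate 2, which held the lowest value. The Trim55 probe was near the filter, at 2.02 times the background, and was well above it on 8 Norm and 7 Hypox arrays. Its difference was -0.14 (SE 0.08), from -0.43 on slide 6 to 0.23 on slide 4. Trim55 and Wwp1 probe 1 were the only member probes past the filter with a lower mean in Hypox.

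Fbxo30 (also called MUSA1), an F-box protein described as a ligase of denervated muscle held down by BMP signalling, had a difference that came from 1 array. Probe 1 read 2.31 on Hypox replicate 4, a dim array of slide 1, while the other Hypox arrays lay between -0.11 and 0.21 and the Norm arrays between -0.37 and 0.42. On the same array Fbxo30 probe 2 read 0.09. The difference of probe 1 was 0.27 (SE 0.19) with that array and 0.08 (SE 0.07) without it. Probe 2 did not pass the filter, at 1.46 times the background, and differed by 0.02 (SE 0.05) when no filter was applied.

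Stub1 (also called CHIP), a co-chaperone that adds ubiquitin to clients of the heat shock proteins, ran from -0.60 over -0.18 to 0.20 in Norm and from -0.60 over -0.23 to 0.51 in Hypox. The groups overlapped, with 2 Hypox arrays above every Norm array and 1 below, and the difference was 0.10 (SE 0.11). Without Hypox replicate 12, the highest, it was 0.04 (SE 0.10), and over the 19 arrays -0.005 (SE 0.11). Cblb, a RING ligase that tags Irs1 in unloaded muscle, had probe 1 at 2.21 times the background with a difference of 0.05 (SE 0.08), and probe 2, which did not pass the filter, at -0.05 (SE 0.07). Traf6, a RING ligase of NF-kB signalling, had no probe past the filter. Its 3 probes read 1.10 to 1.81 times the background and, without a filter, differed by 0.003 to 0.11. Traf6 probe 1 was higher in Hypox on 6 of 6 slides, by 0.01 to 0.20, and was well above background on 5 Norm and 8 Hypox arrays.

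The normalization moved most members together. With median centring, the difference of the median probe went from 0.02 to 0.24. Relative to that shift, the brighter members Trim63 probe 1, Nedd4, Trim54, Fbxo32 and Stub1 stood at 0.52, 0.27, 0.24, 0.23 and 0.21, and Wwp1 probe 1 at -0.39. The SE of these differences rose to between 0.26 and 0.53. Relative to the same shift, Cblb probe 1 and Wwp1 probe 2 changed sign, to -0.10 and -0.11.

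**Figure D3:**
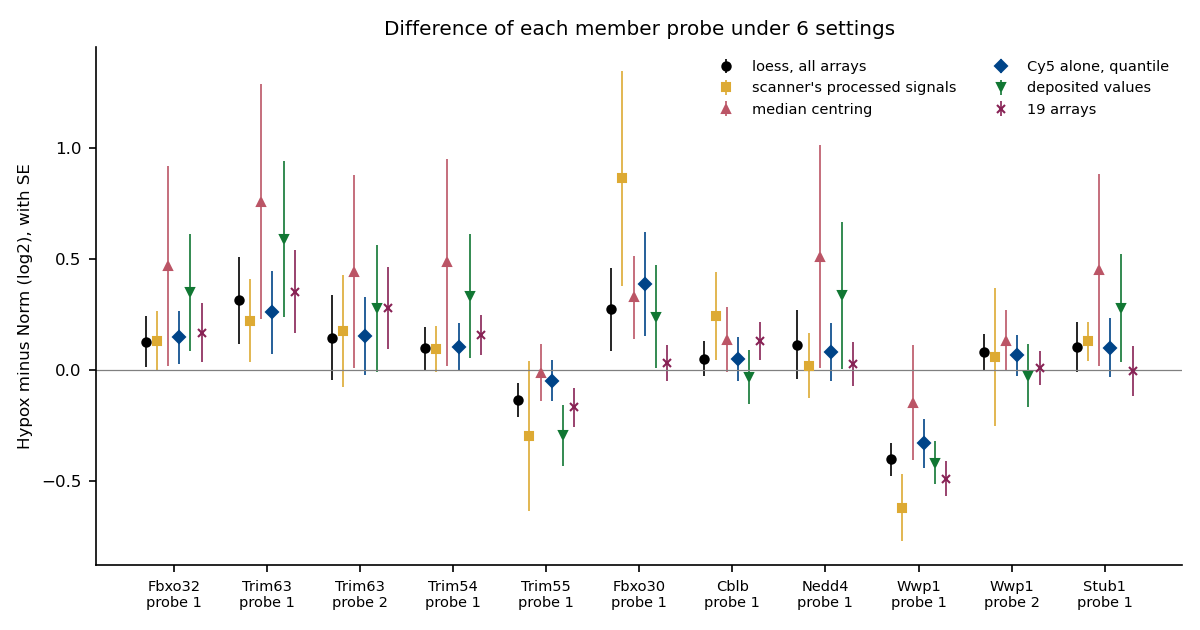
Difference between the Hypox and Norm means (log2) with its SE for the 11 member probes under 6 settings: loess on all arrays, the scanner's processed signals, median centring, Cy5 alone after quantile normalization, the deposited values, and 19 arrays without slide 1 and Hypox replicate 2. Wwp1 probe 1 is below 0 under all 6, from -0.62 with the scanner's processed signals to -0.15 with median centring, where its SE is widest, at 0.26.

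The variation between mice of 1 group did not enter the choice of the members and was tested. For the 9 member genes with a probe past the filter, 36 pairs were correlated over the 24 arrays after removal of the group means, with the brightest probe of each gene and 100000 permutations within groups (2-sided). No pair passed an adjusted 0.05 by Pearson's r, where 5 had an unadjusted P-value under 0.05, and 2 passed by Spearman's rho. The median r was 0.04.

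Fbxo32 and Trim63 were one of the pairs that passed by rank. Their rho was 0.65 (permutation P-value = 0.0023, adjusted 0.042), and their r was 0.49 (permutation P-value = 0.039, adjusted 0.34). With the slide means removed as well r was 0.50 (P-value by permutation within slides, not groups, 0.030, adjusted 0.27). Without the 2 arrays farthest from the median of Fbxo32 it was 0.56. It was 0.69 within Norm alone and 0.44 within Hypox alone. Trim63 was read here by its probe 1, and a correlation of Fbxo32 with Trim63 probe 2 was not run.

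Fbxo30 and Wwp1 probe 1 were the other pair, with a rho of 0.58 (permutation P-value = 0.0013, adjusted 0.042) and an r of 0.47 (permutation P-value = 0.0040, adjusted 0.14). The relation was absent in Cy5 alone, where r was 0.09 (permutation P-value = 0.63). Without the 2 arrays farthest from the median of Fbxo30 r was 0.51, and with the slide means removed 0.45. Fbxo32 and Stub1 went in opposite directions, with r = -0.55 (permutation P-value = 0.015, adjusted 0.27), and -0.41 without the 2 farthest arrays. Nedd4 correlated with Trim63 (r = 0.51, permutation P-value = 0.032, adjusted 0.34) and Trim54 (r = -0.56, permutation P-value = 0.047, adjusted 0.34). Each r became 0.04 without 2 arrays, those farthest from the median of Trim63 in the first pair and of Trim54 in the second. Each correlation so rested on the arrays left out for it.

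**Figure D4:**
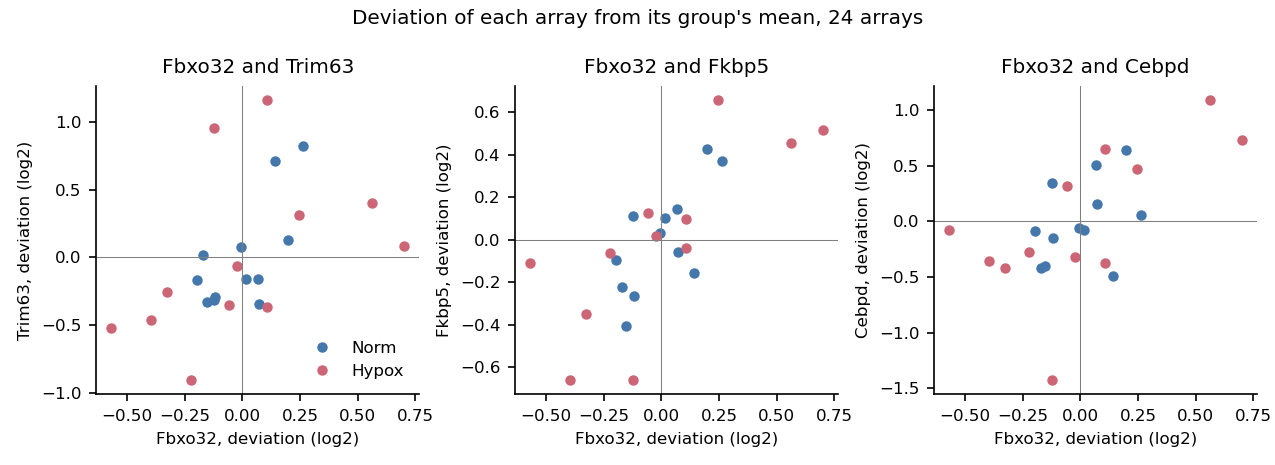
Deviation of each of the 24 arrays from its group mean (log2) for Fbxo32 on the horizontal axis against Trim63, Fkbp5 and Cebpd on the vertical axes. Pearson's r is 0.49, 0.74 and 0.60 from left to right. Fkbp5 was picked as 1 of the 5 genes most like Fbxo32 among 9185. Cebpd had the highest r of the 78 pairs with regulators, none of which passed an adjusted 0.05.

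Fbxo32, Trim63 and Wwp1 were then set against 26 upstream regulators past the filter, FOXO factors, kinases, glucocorticoid and TGF-beta signalling genes among them, in 78 pairs. None passed an adjusted 0.05 by r or rho, and 7 had an unadjusted P-value under 0.05 by r. Foxo1 had r = 0.17 with Fbxo32, 0.06 with Trim63 and -0.13 with Wwp1 probe 1 (permutation P-values = 0.52, 0.83 and 0.60). Foxo3 was on the list but had no probe past the filter, so it was not correlated. Fbxo32 correlated with Cebpd, a transcription factor induced by glucocorticoids, at r = 0.60 (rho = 0.57, permutation P-value = 0.010, adjusted 0.29), and at 0.36 without the 2 farthest arrays. This was the highest r of the 78 pairs. With Nr3c1, the gene of the glucocorticoid receptor, and with Klf15, Fbxo32 had r = 0.11 and 0.33 (permutation P-values = 0.65 and 0.14). Fbxo32 and Foxo6, a FOXO factor, had r = -0.56 (rho = -0.59, permutation P-value = 0.011, adjusted 0.29). With the slide means removed this pair reached r = -0.83 (P-value by permutation within slides 0.00013, adjusted 0.010), and in Cy5 alone -0.62 (permutation P-value = 0.0010, adjusted 0.039). Wwp1 probe 1 and Foxo4, another FOXO factor, had r = 0.53 (rho = 0.54, permutation P-value = 0.0091, adjusted 0.29), the smallest unadjusted P-value by r of the 78 pairs, but r was -0.18 in Cy5 alone (permutation P-value = 0.36). The other 4 of the 7 were Trim63 with Smad5 and Tfeb (r = 0.47 each) and Wwp1 with Myog (-0.47) and Smad3 (-0.42), each with an adjusted P-value of 0.53 by permutation. Without the 2 arrays farthest from the median of the ligase, r was 0.25, 0.11, -0.18 and -0.30 in the same order. In Cy5 alone, Wwp1 and Myog turned to r = 0.48 and Wwp1 and Smad3 to 0.03.

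The genes most like each of these 3 ligases from mouse to mouse were taken from the other 9185 genes tested, by Pearson's r over 24 arrays with group means removed. For Fbxo32 they were Odf3l2 (r = 0.75), Fkbp5 (0.74), Vps50 (0.69), Hmga2-ps1 (0.68) and Rlf (0.66). Fkbp5 encodes a co-chaperone of the glucocorticoid receptor that is itself induced by glucocorticoids. Its r with Fbxo32 was 0.67 without the 2 farthest arrays and 0.81 with the slide means removed. For Trim63 they included Polr2a (r = 0.76), Ubn1, Ryk and Atp6v1e1 (0.75 each), and these fell to between 0.49 and 0.61 without the 2 farthest arrays. Polr2a encodes the catalytic subunit of RNA polymerase II.

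For Wwp1 probe 1 the most similar genes included Rnf146 (r = 0.71), Eif2s3x (0.67), Smc5 (0.65) and Gtpbp10 (0.65). Without the 2 farthest arrays these lay between 0.59 and 0.71. They were read from the ratios and are not given for Cy5 alone, where Wwp1 did not keep its r with Fbxo30, Foxo4, Myog or Smad3. Rnf146, a ubiquitin ligase that reads poly-ADP-ribose, differed by 0.04 (SE 0.08) between Hypox and Norm (limma, adjusted P-value = 0.83). As the top of a ranking of 9185 genes, these correlations are given without a test.

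The rest of the ubiquitin pathway was read from lists of named genes, 1 probe a gene. Of all 201 listed genes 173 had a probe past the filter, and 22 of them (11 higher, 11 lower) had an unadjusted P-value under 0.05. That share is to be read beside 11.9% of the 9186 genes tested. A pair of listed genes, Ttn and Sgk1, passed an adjusted 0.05, beside 0.577% of all genes tested. The median difference was 0.01 over the listed genes and 0.03 over all genes.

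Among the relatives of Nedd4 and Wwp1 and their adaptors, 6 of 9 passed the filter and none had an unadjusted P-value under 0.05 or an adjusted one. Itch, a HECT ligase, came nearest, at 0.18 (SE 0.10, adjusted P-value = 0.43), and Wwp2, the closest relative of Wwp1, differed by 0.12 (SE 0.07, adjusted P-value = 0.47). Their values do not share the direction of Wwp1 probe 1, and a difference between them and Wwp1 was not tested. Hecw1 (-0.14, SE 0.14) and Smurf2 (-0.03, SE 0.09) were the 2 with a lower Hypox mean.

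Of all 9186 genes tested, 453 were lower and 641 higher at an unadjusted 0.05. Of 31 other ligases of muscle, 3 were lower at that threshold and none was higher. Among them were Ubr4 (-0.25, SE 0.10), a giant ligase of the N-degron pathway, and Ube3a (-0.18, SE 0.09), known from Angelman syndrome. Their adjusted P-values in limma were 0.24 and 0.35. A second probe of Ubr4 differed by -0.05. Of 30 deubiquitinases, which take ubiquitin off again, Usp8 (-0.32, SE 0.08, adjusted P-value = 0.068) and Cyld (-0.17, SE 0.07, adjusted P-value = 0.28) were lower at an unadjusted 0.05 and none was higher. Usp8 was lower on 6 of 6 slides.

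Of 38 genes for ubiquitin, E1 and E2 enzymes and the SCF core, 2 were higher and 1 was lower at an unadjusted 0.05. The E2 genes Ube2g2 (0.40, SE 0.13, adjusted P-value = 0.15) and Ube2q2 (0.31, SE 0.13, adjusted P-value = 0.26) were higher, each on 6 of 6 slides, though their other probes differed by -0.13 and -0.06. Ube2b, an E2 long described in wasting muscle, was lower (-0.26, SE 0.10, adjusted P-value = 0.24) on 6 of 6 slides, with all 3 of its probes between -0.28 and -0.14.

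Of 26 upstream regulators, Sgk1, a kinase that phosphorylates FOXO factors and Nedd4-2, rose in Hypox by 0.46 (SE 0.11, limma, adjusted P-value = 0.031), from 0.21 ± 0.26 to 0.67 ± 0.27 (SD, n = 12 each), on 6 of 6 slides. The call was kept in 13 of 24 limma fits with 1 array left out and in 7 of 14 other settings. Myog, a myogenic factor that activates Fbxo32 and Trim63 after denervation, was higher by 0.23 (SE 0.06, adjusted P-value = 0.056), also on 6 of 6 slides. Ddit4, an inhibitor of mTORC1, was higher by 0.53 (SE 0.15, adjusted P-value = 0.095). Foxo1, named after its value was seen, was higher by 0.23 (SE 0.11, adjusted P-value = 0.35), with its other probe at 0.12. Atf4 (-0.24, SE 0.10, adjusted P-value = 0.27) and the kinase Akt2 (-0.18, SE 0.09, adjusted P-value = 0.36) were lower. The other probe of Atf4 differed by -0.01. Akt2 had 3 probes past the filter, between -0.18 and 0.10, of which 1 had an unadjusted P-value under 0.05 in limma.

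Of 42 described substrates and partners, 5 were higher and 3 lower at an unadjusted 0.05. Ttn, the giant sarcomere protein that Trim63 binds, fell by 0.75 on the log2 scale (SE 0.17, limma, adjusted P-value = 0.029), from 0.63 ± 0.56 to -0.12 ± 0.27 (SD, n = 12 each). It had 4 probes past the filter, between -1.21 and 0.10, of which 3 had an unadjusted P-value under 0.05. The call was kept in 18 of 24 limma fits with 1 array left out and in 8 of 14 other settings. Arrdc2 (0.64, SE 0.19, adjusted P-value = 0.098), Txnip (0.54, SE 0.15, adjusted P-value = 0.073) and Arrdc3 (0.26, SE 0.10, adjusted P-value = 0.21) were higher at an unadjusted 0.05. The related genes Arrdc4, at 0.16 (SE 0.09), and Arrdc1, at -0.02 (SE 0.07), did not reach it. Txnip encodes a protein that binds thioredoxin. The other probe of Txnip differed by 0.20 and did not reach an unadjusted 0.05. Arrdc3 and Klf2 (0.32, SE 0.13, adjusted P-value = 0.24), a transcription factor tagged by Wwp1, were named after their values were seen.

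Mylpf, a light chain of fast myosin and a described target of Trim63, was higher by 0.36 (SE 0.10, adjusted P-value = 0.071) on 6 of 6 slides. Mylk2, the kinase of that light chain, was lower by -0.29 (SE 0.10, adjusted P-value = 0.16) and Insr, the insulin receptor, by -0.20 (SE 0.08, adjusted P-value = 0.24). The negative values of 6 listed genes given here, those of Mylk2, Cyld, Ubr4, Ube2b, Atf4 and Akt2, turned positive under median centring. The median of all probes was then at 0.24, and relative to it Cyld (-0.15) and Ubr4 (-0.11) stayed lower, while the other 4 lay between 0.0048 (Mylk2) and 0.0915 (Atf4).

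Markers of other cells in the muscle were read from lists as well. At an unadjusted 0.05, which 11.9% of all genes tested reached, 3 of 6 peripheral nerve and 2 of 5 adipose markers past the filter were lower in Hypox, and 2 of 4 endothelial markers and 1 of 2 lung markers were higher, with none past an adjusted 0.05 in limma. Of 3 red blood cell and 4 immune cell markers, 0 reached it. For the nerve markers the mean log2 ratio lay between -0.47 and 0.51 on Norm arrays and between -0.65 and 0.08 on Hypox arrays. The adipose markers lay between -0.68 and 0.96 (Norm) and between -0.72 and -0.12 (Hypox), the endothelial markers between -0.38 and 0.06 and between -0.32 and 0.05, and the lung markers between -0.90 and -0.11 and between -0.72 and 1.33. The red blood cell markers lay between -0.81 and 0.16 (Norm) and between -0.39 and 0.46 (Hypox), and the immune cell markers between -0.19 and 0.27 and between -0.36 and 0.40. Their part in the differences of the ligases was not tested.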

How the data were processed

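RNA of the M. gastrocnemius of 24 mice (12 Norm, 12 Hypox) was hybridised to 24 Agilent arrays on 6 slides, with the mouse in Cy5 and a pool of all samples in Cy3. The authors deposited, per the file headers, the intensity of each spot (mean and local background per channel) from Agilent Feature Extraction 10.7.3.1, without normalization between arrays. They also deposited a table of log2 values for 21335 of the 59305 spots other than controls, with a median of 6.575 in each of the 24 columns. Its deviations between arrays ran the same way as log2 Cy5 before normalization (median r = 0.95 over 14288 probes, lowest 0.20), and how it was scaled beyond the common median stays unknown. From the intensities, the background was corrected by normexp (offset 50), log2 ratios were normalized by loess within arrays, flagged readings (7260) were left out, and spots of a probe were averaged. The test in limma 3.58.1 took in probes with a Cy5 mean above 2 times the local background and no more than 4 missing arrays, in R 4.3.3, with Benjamini-Hochberg adjustment over 14421 probes. The brightest probe stood for a gene. Of 55681 probes, 27235 were named by RefSeq accession (GRCm38.p6) and 4146 by symbol or synonym. Probe positions are mm9, as in the file headers. Correlations used Python 3.11.15.

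The members and all lists were chosen with earlier results of these data known. The text names every member probe, for each list the genes past an adjusted 0.05 and at most 3 in each direction by the smallest unadjusted P-value under 0.05, and 5 genes most like Fbxo32, Trim63 and Wwp1; of these, 3 genes are not reported here, though the counts include them. Each array holds 1 mouse. Fits and correlations were tested on simulated data first. The number of arrays and the dim slide limit the precision. Alternatives were other background corrections, normalizations, filters, blocks and tests, the deposited values, and leaving arrays out; 2 settings, without slide 1 and also without Hypox replicate 2, were added after the data were seen.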

Additional observations from a re-analysis of the deposited data

How the results depend on the processing

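Wwp1 probe 1 stayed below 0 under every setting run that kept it. The counts of members that follow are a description and no test of them. The count of member probes past an unadjusted 0.05, 1 with loess, was 0 with median centring and 0 among probes well above background on all 24 arrays, which leaves Wwp1 out, 2 in the deposited values by limma and 2 by the methods' t-test (Trim55 joined), 2 without slide 1, where Trim63 probe 1 joined at 0.45, and 1 to 2 with 1 array left out. The arrays that added a probe when left out were Norm replicate 2 and Hypox replicate 10 (Trim55, -0.17 and -0.16), Hypox replicate 2 (Trim54, 0.16) and Hypox replicate 12 (Trim63 probe 1, 0.40). The 22 listed genes became 0 with median centring, 13 in the deposited values (limma and the methods' t-test alike) and 11 of the 83 well above background on all arrays, and were 19 to 27 with 1 array left out. Over all probes, the 1996 of 14421 past an unadjusted 0.05 (13.8%) became 57 with median centring (0.395%) and 1324 in Cy5 alone (9.18%). Other settings tested other numbers of probes. The count was 914 of 14288 (6.40%) in the deposited values, and 1042 of 19360 (5.38%) there by the methods' t-test. It was 4487 of 55681 (8.06%) with no filter and 682 of 4512 (15.1%) well above background on all arrays. With 1 array left out it was 1708 to 2262. The 136 past an adjusted 0.05 (0.943%) became 253 with the scanner's processed signals, 0 with median centring and 60 in Cy5 alone. The count was 1 in the deposited values, 45 with no filter (0.0808%) and 62 with the replicate number as a block. It was 678 with array weights, 86 by the methods' t-test on the ratios and 0 on the deposited values. With 1 array left out it was 40 to 231. The lowest was without Hypox replicate 7 and the highest without Norm replicate 12, and Norm replicates 1, 2, 5, 6 and 7 and Hypox replicates 3, 8, 10 and 11 also moved it by over 1.5 times.

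The replicate numbers are not stated to pair mice: same-numbered arrays correlated at -0.20 to 0.41, over 0.1 in 3 of 12 pairs, and 3 of 24 arrays were closest to their own number. The replicate block moved the count past an adjusted 0.05 from 136 to 62. With this block the member count was 1 and the listed count 25. With the slide as a block they were 1 and 32.

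Under median centring Mylk2 was at 0.25, Cyld at 0.087, Ubr4 at 0.13, Ube2b at 0.29, Atf4 at 0.33 and Akt2 at 0.27, against a median probe at 0.24. In the deposited values, by limma and by the methods' t-test, Mylk2 was at 0.069, Ube2b at 0.11, Atf4 at 0.12 and Akt2 at 0.11. The cause was not tested. With 1 array left out, the adjusted P-value in limma ran from 0.0031 to 0.059 for Ttn and from 0.018 to 0.066 for Sgk1, and over 14 other settings from 0.0077 to 0.90 and from 0.015 to 0.81. Ttn was no longer past 0.05 without Norm replicates 2, 5 or 7 or Hypox replicates 7, 8 or 10 (-0.76 to -0.70), and Sgk1 without Norm replicates 2, 3, 4, 6 or 7 or Hypox replicates 3, 5, 7, 8, 10 or 11 (0.44 to 0.48). Both calls were lost with median centring, with no filter, in the deposited values and by the methods' t-test, that of Ttn also over the 19 arrays and that of Sgk1 also in Cy5 alone and with the replicate block. With 1 array left out, Akt2, Ube3a and Foxo1 stayed past an unadjusted 0.05 in 12, 11 and 11 of 24 fits, and the other listed genes reported past it stayed so in all 24. Of the 78 correlations with regulators, 0 passed as reported, 1 with slide means removed (Fbxo32 and Foxo6) and 2 in Cy5 alone (that pair, and Wwp1 with Cebpb); of the 36 between members 0 passed by r under each setting run.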
